A study of Mus with 15 samples.

Results

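The C1q-like and cerebellin genes, C1ql1 to C1ql4 and Cbln1 to Cbln4, were read out in peak lists of histone H2A monoubiquitinated on its C-terminal tail (H2AK119ub, called H2Aub) from mouse thalamus. These 8 genes were chosen by name as a family of secreted synaptic proteins, out of 21887 protein-coding genes placed on chromosomes 1 to 19, X and Y. Earlier results of these data were known when they were chosen. For each gene the peaks overlapping its annotated body plus 5 kb on each side were collected and placed relative to the start of transcription. C1ql3 is also a gene that the study names.

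H2Aub was profiled by ChIPmentation, in which the Tn5 transposase inserts sequencing adapters while the immunoprecipitated chromatin is still on the beads. The 11 libraries came from pooled thalami (3 to 4 per library per the labels) of mice aged 2 to 4 months that received 5 daily injections after a few days of saline. Control mice, labelled WT, were floxed Maged1 littermates per the study's methods, which describe hemizygous males on a C57Bl6J background, and contributed 3 cocaine (20 mg/kg) and 3 saline libraries. Maged1-cKO mice, written cKO here, had the floxed allele deleted by Cre under Vglut2 and contributed 2 cocaine (20 mg/kg) and 3 saline libraries. The deletion was thus limited to Vglut2-Cre cells, whereas the chromatin came from every cell type of the dissected thalamus. Peak lists hold no transcripts, so neither the tissue nor the deletion could be checked against marker genes. Maged1 had no peak at either gene end in any library.

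A floor on sequencing depth is stated by the study, whereas reads per library are not given in the sources used here. The lists held 7271 to 80713 peaks and covered 4.24 to 27.6 Mb. Replicate 1 of each cKO group stood apart, with 54653 peaks (cocaine) and 80713 peaks (saline) against at most 26055 in the other 9 libraries, and with peaks of up to 31.2-fold and 52.6-fold enrichment over input against at most 12.2-fold. Comparisons of groups and H2Aub+ calls that use these libraries are also given without them. WT cocaine libraries covered 17.2, 15 and 10.4 Mb in all, and WT saline libraries 11.1, 5.55 and 8.41 Mb. Whether list length has a part in the differences below was not tested, and lengths per Mb under peaks are given beside several of them.

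H2Aub is deposited by Polycomb repressive complex 1 and is found in wide domains over the promoters of developmental and other silenced genes. C1q-like proteins and cerebellins are small secreted proteins that share the globular domain of complement C1q and assemble into oligomers in the synaptic cleft. C1q-like proteins bind the adhesion receptor Adgrb3 (BAI3) on the receiving cell, and C1ql2 and C1ql3 also connect presynaptic neurexin 3 with kainate receptors. Cerebellins join presynaptic neurexins to postsynaptic receptors of the glutamate receptor delta class. In whole tissue, a mark on few cells cannot be told apart from a weak mark on many.

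The 8 genes fell into 3 levels of H2Aub. C1ql1, C1ql2, C1ql4 and Cbln1 had a peak in their window in all 11 libraries, with means of 3265 to 5250.2 bp under peaks per library. Cbln4 and C1ql3 had one in 10 and 9 libraries, with 1079.3 ± 911 bp and 558 ± 460 bp (SD, n = 11). Cbln2 and Cbln3 had one in 6 libraries each, with 168 ± 174 bp and 244 ± 305 bp (SD, n = 11). Among the 9 libraries without the cKO replicates 1, the numbers with a peak were 9 for each of C1ql1, C1ql2, C1ql4 and Cbln1, 8 for Cbln4, 7 for C1ql3, 5 for Cbln3 and 4 for Cbln2.

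**Figure D1:**
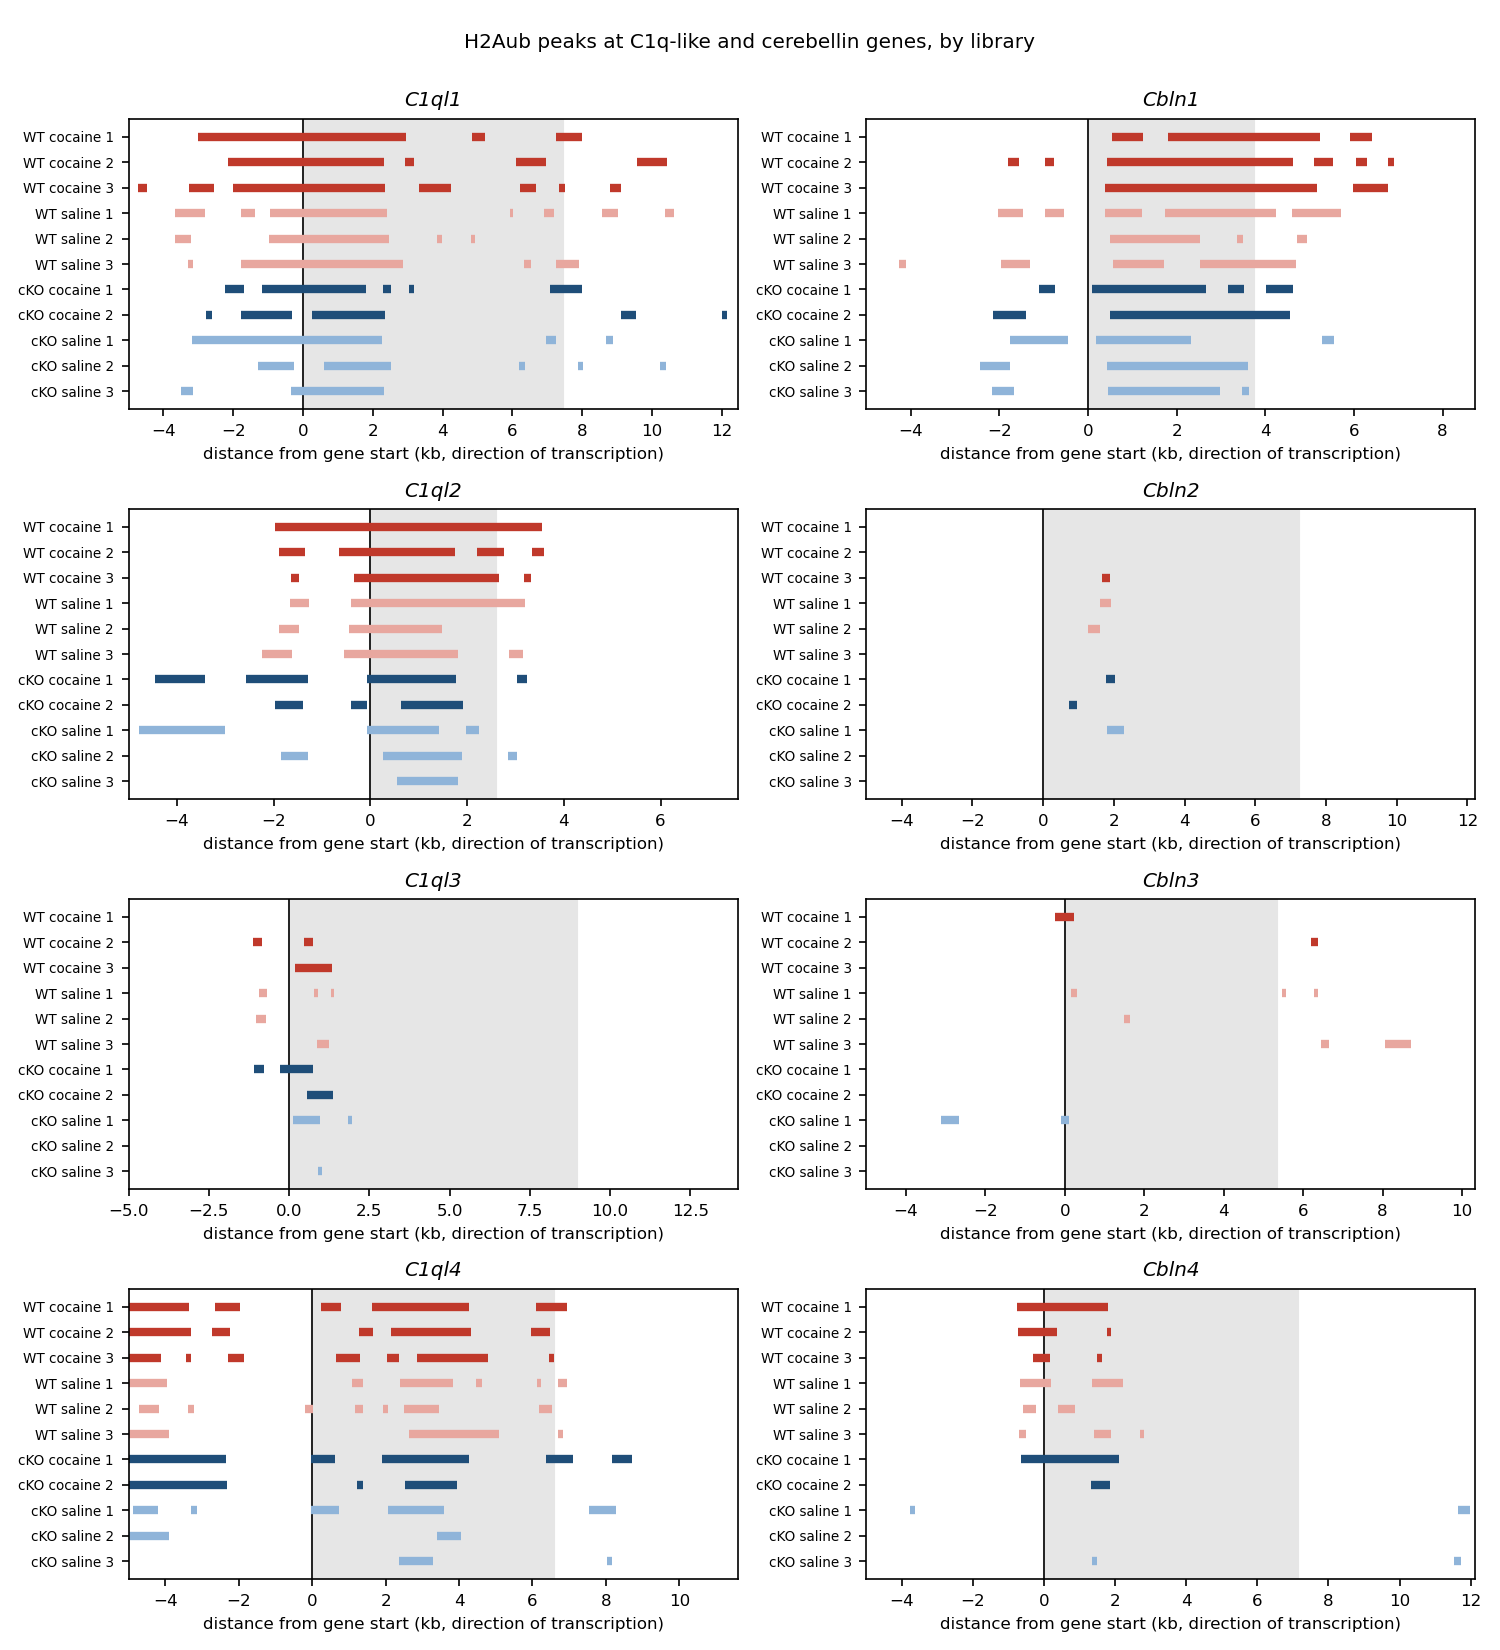
H2Aub peaks of each library (rows) at each gene, against the distance from the gene start in kb in the direction of transcription; the grey band is the gene body, the window ends 5 kb beyond it and peaks reaching further are clipped. C1ql1, C1ql2, C1ql4 and Cbln1 carried wide peaks in all 11 libraries, while peaks at Cbln2 and Cbln3 were short and present in 6.

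C1ql1, which is expressed by inferior olive neurons and acts at climbing fibre synapses, lies on chromosome 11 (mm10, 102939264 to 102946716) with no other gene in its window. It had the most H2Aub of the 8, at 5250.2 ± 1414.9 bp per library (SD, n = 11) or 30.1% of its window. The WT cocaine libraries had 7087, 6448 and 7203 bp, the WT saline libraries 5703, 4160 and 5673 bp, the cKO cocaine libraries 4827 and 4261 bp, and the cKO saline libraries 5918, 3467 and 3005 bp. Every WT cocaine library was thus above every other library of the study. In all 11 libraries a stretch of 1194 bp was under a peak, from 607 to 1800 bp downstream of the start (chromosome 11, 102944916 to 102946109). In at least 8 libraries the domain ran without a break over 3537 bp, from -1187 to 2349 bp relative to the start (negative values lie upstream). The start base itself was under a peak in 9 libraries.

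C1ql2, a product of hippocampal mossy fibres among others, lies on chromosome 1 (120340582 to 120343174), again with no other gene in its window. Peaks covered 5532, 3732 and 3308 bp in the WT cocaine libraries, 3979, 2324 and 3258 bp after saline in WT, 4370 and 2213 bp in the cKO cocaine libraries, and 3540, 2378 and 1281 bp after saline in cKO. All 4 groups overlapped with each other. A stretch of 806 bp, from 623 to 1428 bp downstream of the start, was under a peak in all 11 libraries (chromosome 1, 120341205 to 120342010). Most libraries also had a separate, shorter peak between -2579 and -1280 bp. The domain lay over the start in 8 libraries and, in WT cocaine replicate 1, spanned the whole gene in a single peak of 5532 bp.

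Cbln1, the cerebellin that cerebellar granule cells secrete at parallel fibre synapses, lies on chromosome 8 (87468853 to 87472592). Peaks covered 4661, 5488 and 5581 bp in the WT cocaine libraries, 5435, 2394 and 4152 bp after saline in WT, 3935 and 4788 bp in the cKO cocaine libraries, and 3726, 3852 and 3175 bp after saline in cKO. Peaks took up 31.2% of the window on average, the highest share of the 8 genes. No library had a peak over the start base of Cbln1. The nearest peak began 93 to 563 bp downstream of the start in each library, and the stretch shared by all 11 ran from 563 to 1211 bp downstream (chromosome 8, 87471381 to 87472029). The lncRNA Gm2694 lies 219 bp beyond that end of Cbln1. No library had a peak between -441 and 93 bp, an interval that holds the facing ends of both genes. In at least 8 libraries the domain continued to 2970 bp downstream, and 46.7% of the covered length lay in the window from 5 kb upstream to 2 kb downstream of the start.

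C1ql4 lies on chromosome 15 (99084086 to 99090674). Its annotated span rests in part on predicted transcripts, so its listed start may not be the start in use. Peaks covered 6357, 5229 and 4488 bp in the WT cocaine libraries, 3326, 2554 and 3700 bp after saline in WT, 6939 and 4277 bp in the cKO cocaine libraries, and 3885, 1746 and 1044 bp after saline in cKO. Each cocaine library was above each saline library, of either genotype. C1ql4 carried domains on both sides of its listed start that were several kb apart. A domain lay from 2522 to 3838 bp downstream of the listed start in at least 8 libraries (chromosome 15, 99086836 to 99088152). Another lay upstream, where 519 bp from -4719 to -4201 bp relative to the listed start were under a peak in 10 of 11 libraries (chromosome 15, 99094875 to 99095393). The upstream domain reached past the window, and in WT cocaine replicate 1 a single peak of 6179 bp began at -9526 bp. The start base was under a peak in 3 libraries. Troap lies 676 bp beyond the other end of C1ql4, and the microRNA gene Mir6960 lies 3220 bp beyond it.

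Cbln4, a cerebellin that binds neurexins and the netrin receptor Dcc, lies on chromosome 2 (172036336 to 172043466). Peaks covered 2573, 1214 and 631 bp in the WT cocaine libraries, 1745, 860 and 787 bp after saline in WT, 2764 and 517 bp in the cKO cocaine libraries, and 457, 0 and 324 bp after saline in cKO. The spread within the cocaine groups was as wide as the levels themselves. The start base was under a peak in 5 libraries, all 3 of WT cocaine and 1 each of WT saline and cKO cocaine. No more than 6 libraries shared any base, over a longest stretch of 129 bp from 1492 to 1620 bp downstream. In the cKO saline libraries with a peak, the widest began 11642 bp (replicate 1) and 11537 bp (replicate 3) downstream of the start, beyond the far end of the gene.

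C1ql3, a C1q-like protein of forebrain projection neurons among others, lies on chromosome 2 (13001887 to 13010864). Peaks covered 0, 558 and 1134 bp in the WT cocaine libraries, 469, 325 and 387 bp after saline in WT, 1361 and 796 bp in the cKO cocaine libraries, and 983, 0 and 128 bp after saline in cKO. A library of WT cocaine and a library of cKO saline thus had no peak, and the levels of the groups overlapped except between WT saline and cKO cocaine, whose values were higher. All of the covered length lay in the window around the start, on both sides of it, and none lay on the end shared with Pter, which overlaps C1ql3 by 1568 bp. Yet the peaks rarely coincided. The start base was under a peak in 1 library only, cKO cocaine replicate 1, and no base was shared by more than 6 libraries, over 19 bp in all, from 891 to 909 bp downstream. Peaks in WT saline replicates 1 and 2 were widest upstream of the start, from -944 to -702 bp and from -1032 to -708 bp, whereas that of replicate 3 lay from 871 to 1257 bp downstream. The strongest peak was in cKO saline replicate 1, at 7.9-fold over input, and the next in cKO cocaine replicate 1, at 4.96-fold. These were the libraries that stood apart, and the other 7 with a peak gave 3.27-fold to 4.12-fold.

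Cbln2, a cerebellin of forebrain neurons, lies on chromosome 18 (86711061 to 86718283). Each of its 6 peaks came from a different library and lay downstream of the start, 738 to 2289 bp from it. Peaks covered 0, 0 and 235 bp in the WT cocaine libraries, 304, 339 and 0 bp after saline in WT, 270 and 220 bp in the cKO cocaine libraries, and 481, 0 and 0 bp after saline in cKO. No base was shared by more than 4 libraries. Cbln3, a cerebellin known from cerebellar granule cells, lies on chromosome 14 (55878920 to 55884256) and begins 555 bp from the neighbouring gene Khnyn. Its peaks covered 471, 174 and 0 bp in the WT cocaine libraries, 360, 159 and 854 bp after saline in WT, 0 bp in both cKO cocaine libraries, and 669, 0 and 0 bp after saline in cKO. These peaks lay between -3127 and 8729 bp from the start, and at most 2 libraries shared a base.

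The genes with the most covered length also had the widest single peaks. The widest peak per library had a median of 3438 bp at C1ql1 (1916 to 5954), 2571 bp at Cbln1 (2025 to 4786), 2456 bp at C1ql4 (926 to 6501) and 1917 bp at C1ql2 (1281 to 5532). Within their own library these peaks were wider than a median of 98.1%, 97.7%, 97.3% and 96.6% of all peaks. The widest peak of Cbln4 had a median of 510 bp, that of C1ql3 387 bp, that of Cbln3 318 bp and that of Cbln2 287 bp. Their median percentiles of width within the library were 71.9, 53.6, 44.8 and 57.5. Fold enrichment separated the genes less than width did. The highest fold enrichment per library had a median of 4.44 at C1ql1, 4.28 at Cbln1, 4.22 at C1ql4, 4.03 at C1ql2, 4.01 at Cbln4, 3.74 at C1ql3, 3.56 at Cbln3 and 3.48 at Cbln2, with ranges over libraries that overlapped between neighbours in this order.

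**Figure D2:**
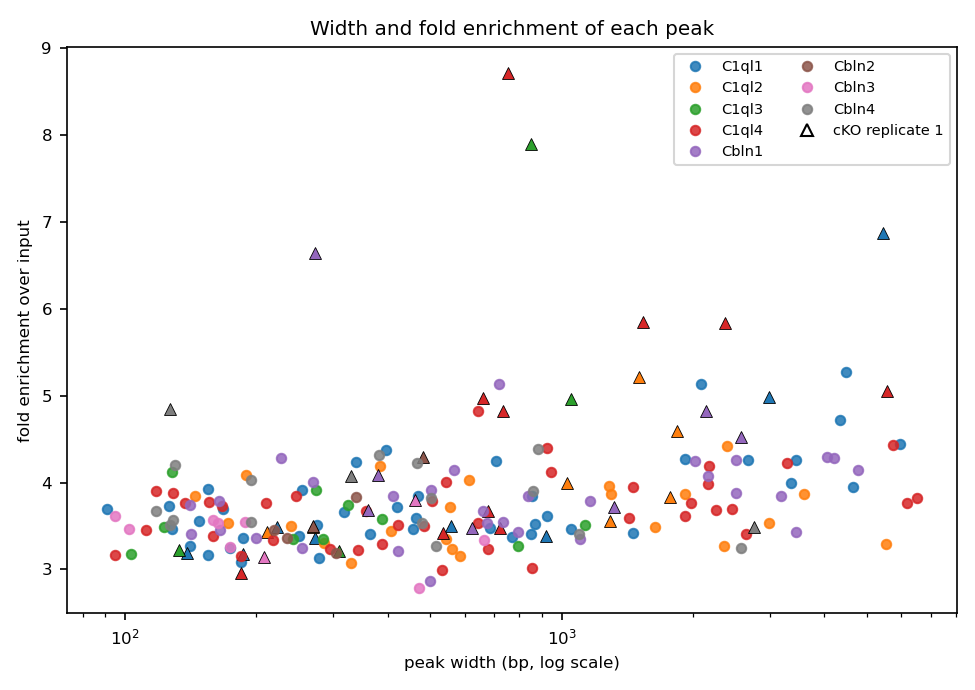
Each point is a peak at one of the 8 genes, by its width in bp (log axis) and its fold enrichment over input; triangles are the first replicates of the cKO groups, which stood apart. Widths ran to 6501 bp whereas fold enrichment in the other 9 libraries stayed between 2.79 and 5.27.

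Calls at gene ends, with windows from 5 kb outside to 2 kb inside both ends, placed the family high among all genes. A peak was present in all 11 libraries at 4 of the 8 genes (C1ql1, C1ql2, C1ql4 and Cbln1), against 5.03% of protein-coding genes, and in no library at 0 of the 8, against 44.1%. The median over the 8 genes of the mean gene-end length under peaks was 1686.7 bp, against 13.7 bp over all protein-coding genes. By that measure C1ql1 stood at the 98.9th percentile of protein-coding genes, Cbln1 at the 98.8th, C1ql2 at the 98.4th, C1ql4 at the 97.6th, Cbln4 at the 93.9th, C1ql3 at the 89.9th, Cbln3 at the 83.2nd and Cbln2 at the 77.6th. Over the 9 libraries without the cKO replicates 1, C1ql3 stood at the 89.8th percentile, Cbln3 at the 85.8th, Cbln2 at the 81.9th and the other 5 genes between the 94.1st and the 98.9th.

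A gene was called H2Aub+ in a group where merged peaks of that group at a gene end were covered by at least 2 of its libraries. The same 6 genes, all but Cbln2 and Cbln3, were H2Aub+ in each of the 4 groups, which held for 6.56% of protein-coding genes. In cKO saline Cbln4 had the call only at the end away from its start. With the start end only (chosen after seeing the data), Cbln4 lost that call and was cocaine-specific in cKO. No share of all genes can be given for that setting, since the gene table holds no start ends. Without the cKO replicates 1, C1ql3 and Cbln4 lost the call in cKO saline, which left 4 genes there (5.13% of protein-coding genes), and cKO cocaine, with a single library, could not be called. With equal numbers of peaks per list, 0 of the 8 were H2Aub+ in cKO cocaine (0.708% of protein-coding genes) and 5 in cKO saline (5.11%), which made those 5 saline-specific in cKO (4.51%). In control mice 15.6% of protein-coding genes were H2Aub+ after cocaine and 11.1% after saline, and in cKO mice 11.1% were after cocaine and 9.62% after saline. Consequently 0 of the 8 were cocaine-specific (H2Aub+ after cocaine and not after saline) or saline-specific in either genotype. The backgrounds were 5.83% cocaine-specific and 1.25% saline-specific in WT, and 3.42% and 1.99% in cKO. For C1ql3 the call turned both ways with the rule. Among peaks with q of at most 0.05, the cut that the study states for its peaks, C1ql3 was H2Aub+ only in the saline groups and so was saline-specific in both genotypes (1.02% of protein-coding genes in WT and 1.58% in cKO). It was cocaine-specific in WT without WT saline replicate 1 (9.53%), and in cKO where a shared element had to lie in all libraries of a group (7.03%).

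To ask whether cocaine changed H2Aub over these genes in control mice, the length under peaks was compared between WT cocaine and WT saline. Mean lengths were higher after cocaine at 6 of the 8 genes and lower at Cbln2 and Cbln3, with a median difference of 673 bp over the 8 (0 bp over all protein-coding genes, of which 28.9% were higher and 8.59% lower). At C1ql4 the mean was 5358 bp after cocaine and 3193.3 bp after saline, a difference of 2164.7 ± 640 bp (SE, n = 3 and 3). At C1ql1 the means were 6912.7 and 5178.7 bp, a difference of 1734 ± 561 bp (SE, n = 3 and 3). The libraries of the groups did not overlap at these 2 genes. Among the protein-coding genes with a peak in any of the 6 libraries, 15.5% were above without overlap and 0.293% below. At C1ql3 the difference was 170 ± 330 bp (SE, n = 3 and 3) and the groups overlapped. With 3 against 3 libraries the smallest p of the two-sided exact permutation test is 0.1, which C1ql1 and C1ql4 had. The p of the other 6 genes was 0.2 to 0.7, and adjusted p over the 8200 genes tested were 0.633 to 1. Relative to the total length of each list the direction turned at C1ql1, where WT cocaine had 512 ± 159 bp and WT saline 646 ± 120 bp per Mb under peaks (SD, n = 3), and it also turned at C1ql2, C1ql3, C1ql4, Cbln1 and Cbln4. The difference of C1ql3 turned to -115 bp without WT cocaine replicate 3, and that of Cbln4 to -208 bp without WT cocaine replicate 1. With equal numbers of peaks per list, C1ql1 and Cbln1 were above without overlap (11.7% of the genes with a peak), while C1ql4 overlapped and differed by 1177 bp. With q of at most 0.01 (for overlap, chosen after seeing the data), only Cbln1 was (12.1%). C1ql4 then differed by 584 bp and C1ql1 by 1632 bp.

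**Figure D3:**
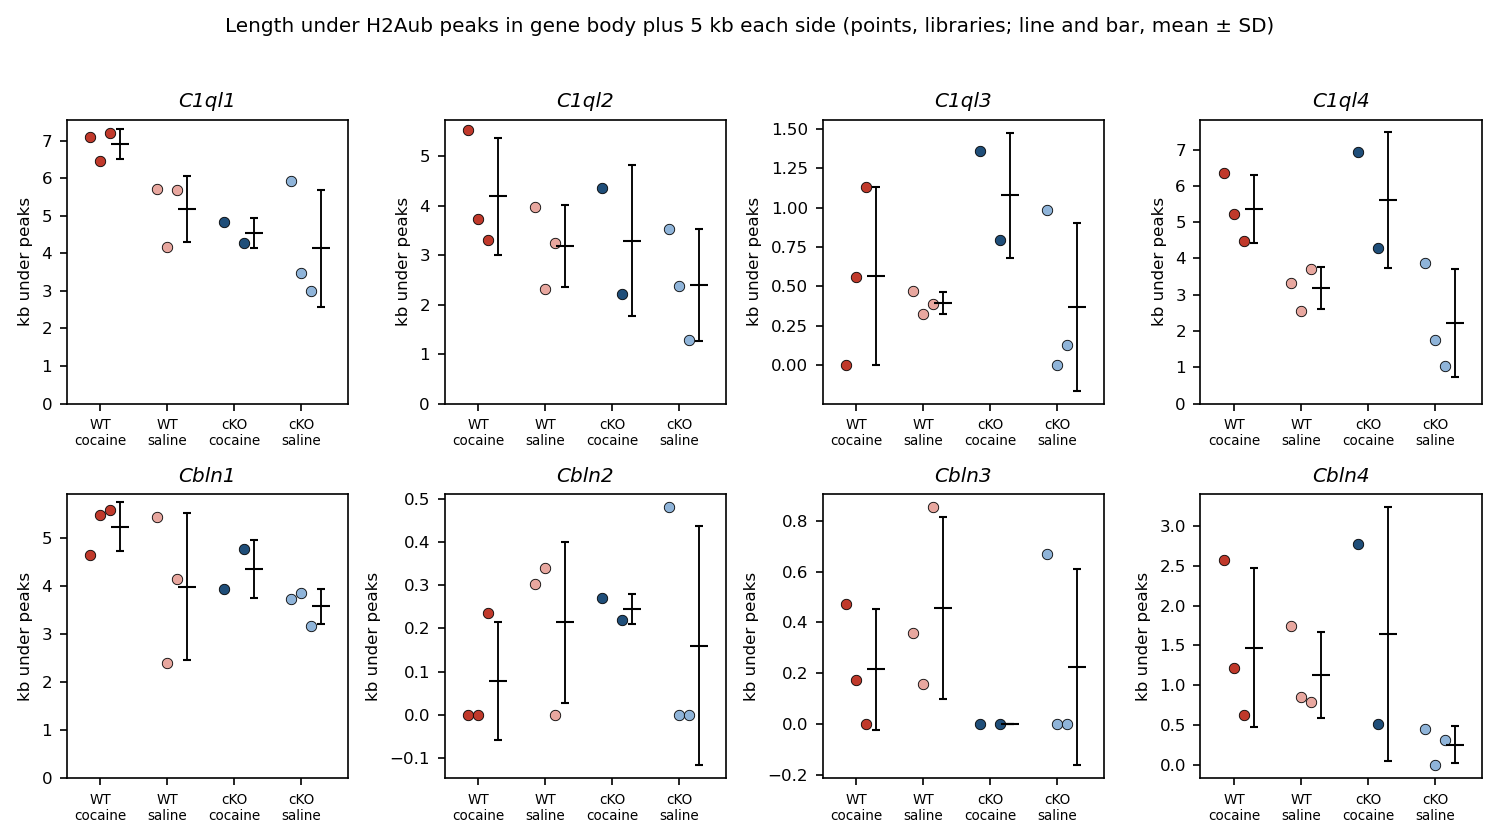
Length under H2Aub peaks (kb) in the gene body plus 5 kb on each side, 1 point per library, with group mean and SD beside the points; the scale differs between genes and an SD bar can reach below 0. At C1ql4 each cocaine library was above each saline library, and at C1ql1 the 3 WT cocaine libraries (6448 to 7203 bp) were above all others.

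In cKO mice the same comparison gave higher means after cocaine at 7 of the 8 genes, with a median difference of 743 bp (0 bp over all protein-coding genes, 36.5% higher and 28.1% lower). The groups did not overlap at C1ql4, Cbln1 and Cbln4, while 3.9% of the genes with a peak were above and 0.0778% below without overlap. C1ql4 had 5608 bp after cocaine and 2225 bp after saline, a difference of 3383 ± 1581.6 bp (SE, n = 2 and 3). Cbln1 differed by 777 ± 474 bp and Cbln4 by 1380.2 ± 1131.7 bp (SE, n = 2 and 3). The exact permutation p was 0.1 at Cbln1 and Cbln4, the smallest possible, and 0.2 at C1ql4, and every adjusted p was 1. When any 1 cKO library was left out, the difference stayed between 2052 and 4714 bp at C1ql4. It lay between 351 and 1203.7 bp at Cbln1 and between 257 and 2503.7 bp at Cbln4. Without the first replicates of both groups, which leaves 1 cocaine and 2 saline libraries, it was 2882 bp at C1ql4, 1274.5 bp at Cbln1, 732 bp at C1ql3 and 355 bp at Cbln4. In those 3 libraries 6 of the 8 genes were higher after cocaine without overlap, against 67.2% of the genes with a peak (2.88% lower). Per Mb under peaks the difference of Cbln1 turned to -153, and with equal numbers of peaks 0 of the 8 genes were higher without overlap (2% of the genes with a peak) and Cbln4 differed by -108 bp. At C1ql1 it was 414 ± 947 bp (SE, n = 2 and 3) and turned to -148 bp without cKO saline replicate 3.

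Permuting treatment within genotype over the 11 libraries can reach a p of 0.01. C1ql4 had that p, with a mean difference of 2773.8 bp in favour of cocaine, higher in both genotypes. Cbln1 had a difference of 1013.4 bp and p = 0.04 in the same exact permutation test. C1ql1 differed by 1074 bp, with an exact permutation p of 0.12, and the other 5 genes had an exact permutation p of 0.17 to 0.77. Of the 14474 genes tested, 3.5% had a p under 0.05, and every adjusted p was 1, so no gene passed the correction. Without the cKO replicates 1, which leaves 1 cKO cocaine library, the difference was 2523.3 bp at C1ql4, 1379.5 bp at C1ql1 and 1262.1 bp at Cbln1. Per Mb under peaks over the 11 libraries, the difference of Cbln1 turned to -117 and that of C1ql1 to -143, and C1ql4 had 67.6 with an exact permutation p of 0.18. Per Mb over the 9 libraries, the difference was -99 at C1ql2, -165 at C1ql1, -136 at Cbln1 and 66.7 at C1ql4. The difference between the effects of cocaine in WT and cKO mice had exact permutation p of 0.29 to 0.98 at the 8 genes, while 0.111% of the genes tested were under 0.05. Without the cKO replicates 1 the exact permutation p was 0.133 to 1, with 0.562% of genes under 0.05. No effect was therefore shown to differ between the genotypes.

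Between genotypes after saline, all 8 genes had lower mean length in cKO than in WT, with a median difference of -598 bp, whereas the median over all protein-coding genes was 41.7 bp, with 52.2% higher and 8.78% lower in cKO. Only Cbln4 did not overlap between the groups, at 260 bp in cKO and 1130.7 bp in WT, a difference of -870 ± 336 bp (SE, n = 3 and 3; exact permutation p = 0.1, adjusted p = 1). The background without overlap was 0.607% lower and 0.54% higher in cKO. Without cKO saline replicate 1 all 8 genes were again lower in cKO, with a median difference of -724 bp, and over all protein-coding genes the balance was also lower, with 7.24% higher and 24.5% lower. Then 5 of the 8 (C1ql1, C1ql3, C1ql4, Cbln3 and Cbln4) were lower without overlap, against 10.1% lower and 1.21% higher among the genes with a peak. The count of the 8 genes lower without overlap in all libraries was 0 with q of at most 0.05 (0.651% of the genes with a peak), 3 with equal numbers of peaks (5.13%) and 5 per Mb under peaks (2.07%). Between genotypes after cocaine, 4 genes had higher and 4 lower means in cKO, while 40.3% of all protein-coding genes were higher and 14.2% lower. Only C1ql1 did not overlap, at 4544 bp in cKO and 6912.7 bp in WT, a difference of -2368.7 ± 368 bp (SE, n = 2 and 3; exact permutation p = 0.1, adjusted p = 0.681). Here 3.25% of the genes with a peak were lower and 6.6% higher in cKO without overlap. With cKO cocaine replicate 2 alone, C1ql1 had 4261 bp, and 6 of the 8 genes were lower than the WT mean, while 9.91% of all protein-coding genes were higher and 25.2% lower. C1ql1, C1ql2, C1ql4 and Cbln4 were then below all WT cocaine libraries, against 23.3% of the genes with a peak (15.5% above), and C1ql4 and Cbln4 had turned direction. These comparisons share their WT libraries with the comparison of treatments in WT.

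H2Aub at the ends of the receptors and partners that were examined ranged from none to levels like that of C1ql3. Of 7 binding partners, Adgrb3, Grid1, Nrxn2, Nrxn3, Grik2, Grik4 and Dcc, 0 had a gene-end peak in all 11 libraries (5.03% of protein-coding genes did), and 2, Adgrb3 and Grik2, had none in any (44.1%). The median of their mean gene-end lengths was 49.6 bp, against 13.7 bp over all protein-coding genes. These medians were 15.3 and 0 bp without the cKO replicates 1. Grid1 stood at the 92.3rd percentile of protein-coding genes (793 bp), Grik4 at the 89.4th (516 bp) and Nrxn2 at the 87.6th (402 bp). In the other 9 libraries they stood at the 89.6th (413 bp), the 84.8th (192 bp) and the 79.2nd (82.7 bp). Grid1, the delta receptor subunit GluD1, and Grik4, a kainate receptor subunit, each had a peak in 8 libraries. Grik4 had one in all 3 WT cocaine libraries (288 ± 69.9 bp, SD, n = 3), in 1 of 3 WT saline libraries, in both cKO cocaine libraries (642 ± 564 bp, SD, n = 2) and in 2 of 3 cKO saline libraries. Grid1 had one in all 3 WT saline libraries (418 ± 416 bp, SD, n = 3) and in 2 of 3 WT cocaine libraries (747 ± 801 bp, SD, n = 3). By the shared-element call both were cocaine-specific in WT, 2 of 7 against 5.83% of protein-coding genes. Grid1, Grik4 and Nrxn2 were saline-specific in cKO, 3 of 7 against 1.99%, but none of the 7 was H2Aub+ in cKO saline without replicate 1, where 5.13% of protein-coding genes were. These genes are long (114 to 1612.2 kb), and peaks inside their bodies lie outside the gene-end windows.

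The complement genes C1qa, C1qb and C1qc, whose products form C1q itself and which microglia express, lie side by side on chromosome 4, so their windows share peaks. A gene-end peak was present in 10 libraries at C1qa, 7 at C1qb and 10 at C1qc. In control mice the mean length at C1qa was 1371.3 ± 406 bp after cocaine and 628 ± 230 bp after saline (SD, n = 3), and at C1qc it was 1419.7 ± 323 and 728 ± 403 bp (SD, n = 3). C1qa and C1qc were called cocaine-specific in WT (5.83% of protein-coding genes were), and H2Aub+ in cKO cocaine (11.1%) and cKO saline (9.62%), whereas C1qb was H2Aub+ in no group. In cKO saline without replicate 1 neither C1qa nor C1qc was H2Aub+ (5.13%).

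**Figure D4:**
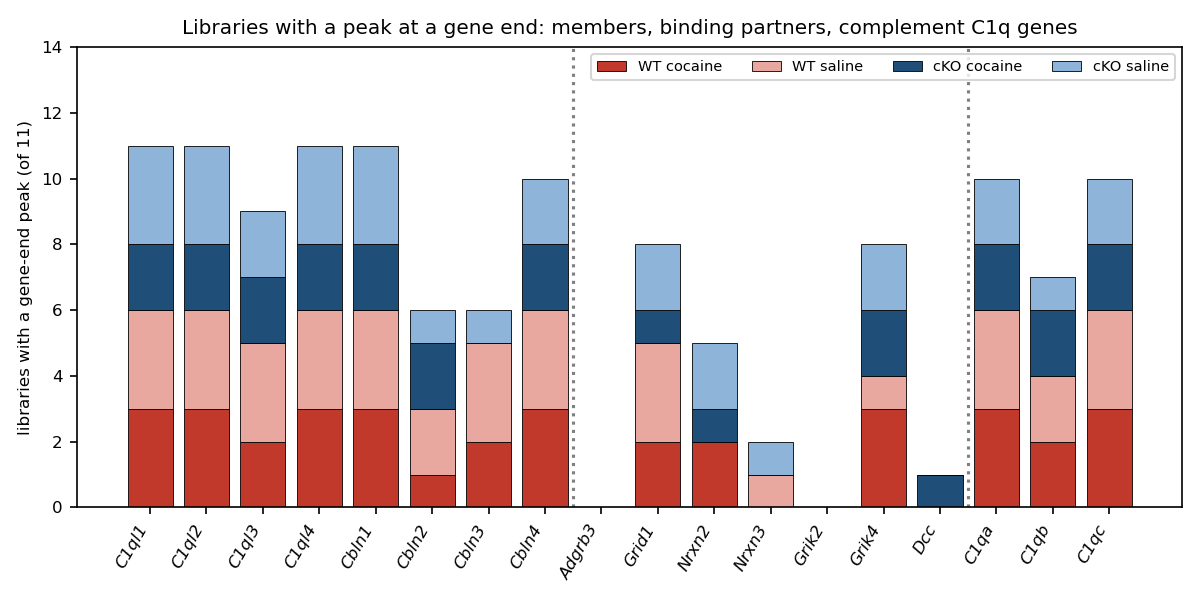
Number of libraries with a peak in a gene-end window, stacked by group, for the 8 genes (left), 7 binding partners (middle) and the 3 complement genes (right). C1ql1, C1ql2, C1ql4 and Cbln1 reached all 11 libraries, and none of these partners exceeded 8.

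The protein-coding genes whose gene-end lengths over the 11 libraries, as log2(bp + 1), were most like those of C1ql3 were Lrig3 (Pearson r = 0.979), Fstl4 (r = 0.966) and Trim10 (r = 0.852), among 3584 genes with a peak in at least 6 libraries. Over the 9 libraries without the cKO replicates 1, r was 0.98, 0.97 and 0.846 in the same order. The points of each correlation are the same libraries and share their depth, and C1ql3 is at 0 in 2 of them, which weighs heavily on this log scale.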

How the data were processed

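H2Aub peak lists of 11 ChIPmentation libraries were used, and 4 total input libraries were not analysed here. Per the labels and the study's methods, the authors mapped reads to mm10 with Bowtie2 2.3.4.1, filtered by mapping quality, and called broad peaks with MACS2 (2.1.1.20160309.3) against input, 1 list per library, with replicates not pooled. Each deposited list gave a whole-number score, the fold enrichment (a linear ratio), and the −log10 p-value and −log10 q-value of each peak. The authors' lists reached q = 0.0997, and 9.82 to 32.9% of peaks had q above 0.05. All peaks were used. The lists hold no read counts, so the depth of each list is unknown, no interval for counting error can be given, and list length was not corrected in the main values.

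Gene bodies came from a RefSeq table (GRCm38.p6, the coordinates of mm10) without strand or transcript starts. The start end of each of the 8 genes was set from general knowledge of its direction, not from the files, and calls over all genes used both ends. Lengths under peaks were computed in Python 3.11.15 with numpy 2.4.6. An H2Aub+ element was a region of merged peaks of a group in which 2 or more of its libraries had 1 bp or more under a peak. The library was the unit of replication, and the study states that replicates were independent, each from its own pool of thalami. Differences of group means were tested by two-sided exact permutation over libraries for each protein-coding gene with a peak in any of the libraries compared, with Benjamini-Hochberg adjustment over all of them. Over both genotypes, 200 arrangements were enumerated and p was 2 times the smaller tail. Code was tested on simulated data. All 8 genes are described, with partners and complement genes as lists (some partners are not reported here), and the 3 genes most like C1ql3 were taken by Pearson r. The genes and lists were chosen with earlier results of these data known. Alternatives were stricter q, equal numbers of peaks, log2 lengths, other windows and element rules, the replicate block, each library left out, and, chosen after seeing the data, length per Mb under peaks, the start end only and leaving out the cKO replicates 1, except for the lengths compared between cocaine and saline in cKO and for the H2Aub+ calls, where this was listed earlier.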

Additional observations from a re-analysis of the deposited data

How the results depend on the processing

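Of 386 alternative values, 314 were classed as unchanged, 32 turned direction and 28 counts moved by over 1.5 times. Differences in length were classed by direction and not by size. The cKO difference of C1ql3, for example, fell from 708 to 156 bp with q of at most 0.05 and was classed as unchanged. Lengths per Mb under peaks (chosen after seeing the data) turned the WT difference between cocaine and saline to -134 at C1ql1, -92 at C1ql2, -0.096 at C1ql3, -16.6 at C1ql4, -80.1 at Cbln1 and -38.3 at Cbln4, and the cKO difference to -152 at C1ql1, -43.9 at C1ql2 and -153 at Cbln1, and the difference over both genotypes to -143 at C1ql1, -68 at C1ql2 and -117 at Cbln1 (without the cKO replicates 1, -165, -99 and -136, and -14.9 at Cbln4), all in bp per Mb. Without the cKO replicates 1 (for these comparisons chosen after seeing the data), the difference between cKO cocaine and WT cocaine turned to -1081 bp at C1ql4 and -956 bp at Cbln4, and that over both genotypes to 42 bp at Cbln2. With the 7271 strongest peaks of each list, the WT difference of C1ql3 was -37.7 bp, and the cKO differences were -571 bp at C1ql2, -326 bp at C1ql3 and -108 bp at Cbln4. With q of at most 0.01 the WT difference of C1ql3 was 0 bp, and the cKO differences were -84.2 bp at C1ql1, -160 bp at Cbln2 and -152 bp at Cbln4. On log2(bp + 1) the WT difference of C1ql3 was -2.18. Leaving out 1 library at a time moved the WT difference of C1ql3 over -115 to 452 bp and that of Cbln4 over -208 to 763 bp, and the cKO difference of C1ql1 over -148 to 1308 bp and that of C1ql2 over -187 to 1970.3 bp. The cause of these turns was not tested.

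Counts of the 8 genes moved as follows, with the share of protein-coding genes (for overlap, of those with a peak) under the same setting in parentheses. With q of at most 0.05, 1 gene (C1ql3) was saline-specific in WT (1.02%) and in cKO (1.58%), and 0 genes were lower in cKO saline than WT saline without overlap (0.651%). With q of at most 0.01, 3 genes were H2Aub+ in cKO saline (3.8%) and 1, C1ql2, was cocaine-specific in cKO (1.7%). At that q (for overlap, chosen after seeing the data), 1 gene, Cbln1 and not C1ql1 or C1ql4, was higher after cocaine without overlap in WT (12.1%). In cKO 0 genes were (1.85%), 0 were lower in cKO saline than WT saline (0.388%) and 2 lower in cKO cocaine than WT cocaine (2.25%). With equal numbers of peaks, 0 genes were H2Aub+ in cKO cocaine (0.708%), 5 were saline-specific in cKO (4.51%), 0 were higher after cocaine without overlap in cKO (2%), 3 were lower in cKO saline than WT saline (5.13%) and 2 lower in cKO cocaine than WT cocaine (11.5%). In WT the count higher after cocaine without overlap stayed at 2 (11.7%), but these were C1ql1 and Cbln1, and C1ql4 overlapped. Where an element had to be in all libraries of a group, 2 genes, C1ql3 and Cbln4, were cocaine-specific in cKO (7.03%), and with the start end only (chosen after seeing the data) 1 (Cbln4), with no share of all genes, whose start ends are not in the gene table. Per Mb under peaks, 0 genes were higher (7.55%) and 2 lower (2.48%) after cocaine without overlap in WT, 5 were lower in cKO saline than WT saline (2.07%) and 2 lower in cKO cocaine than WT cocaine (4.93%). Without the cKO replicates 1 (for overlap, chosen after seeing the data), 6 genes were higher after cocaine in cKO (67.2%), 5 lower in cKO saline than WT saline (10.1%) and 4 lower in cKO cocaine than WT cocaine (23.3%), all without overlap. Leaving out 1 library gave 0 to 1 cocaine-specific and 0 to 1 saline-specific genes in WT (C1ql3 in each case, without WT saline replicate 1, 9.53%, or without WT cocaine replicate 2 or 3, 2.37% and 1.99%) and 0 to 2 cocaine-specific genes in cKO (C1ql3 and Cbln4, without cKO saline replicate 1 or 3, 6.29% and 4.77%). Without either cKO cocaine library a single library remained, so no shared element could be counted.

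Replicate numbers were not taken to pair libraries. In WT, same-numbered libraries correlated at -0.00239 to 0.0221 over 12231 genes, and differently numbered ones at -0.0653 to 0.0512. In cKO, same-numbered libraries correlated at 0.186 and 0.199, and differently numbered ones at -0.199 to 0.056, so this reason holds for WT only. Whether the numbers mark a shared batch in cKO was not tested. With the replicate number as a block, the cKO difference of C1ql1 was -148 bp, and no other difference turned direction. Reads per library are not given in the sources used here, so the absence of a peak at C1ql3, Cbln2 or Cbln3 in a library cannot be told apart from low depth.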
